A study of Homo sapiens with 6 samples.

Results

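The genes described here encode the cytosolic translation initiation factors (eIF) and elongation factors (eEF). They were taken from the count table by symbol, as every gene whose name starts with EIF and a digit or with EEF1 or EEF2, without the eIF2 kinase genes (EIF2AK) and antisense genes. This gave 63 of the 26334 genes in the table. The cells were MCF10DCIS.com, an established human basal-like breast cancer line that forms ductal carcinoma in situ-like lesions in mice. All 6 samples were grown in DMEM/F12 with horse serum. The 3 control samples (shLuc) carried the vector pRSI-U6-shLuc-UbiC-TagRFP-2A-Puro, with a hairpin against luciferase, and the 3 silenced samples (shWDR5) carried the vector of the same name with shWDR5. The methods describe pooled WDR5 hairpins for cells that were transplanted, and whether the sequenced cells carried more than 1 hairpin is not given in the sources used here. Both groups were puromycin-selected, which does not by itself say whether each was an infected pool or a clone. The labels do not say that replicates were separate cultures, so p-values measure the spread between these samples, which may be technical. WDR5 is a shared core subunit of the complexes that methylate lysine 4 of histone H3, and the comparison asks which messages change when it is silenced. Poly-A RNA was sequenced, with 48500509, 38218108 and 39327358 gene counts in the shLuc libraries and 47723477, 57640167 and 46097058 in the shWDR5 libraries.

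Translation starts when eIF2 carries the initiator methionyl-tRNA to the small ribosomal subunit, which eIF1, eIF1A, eIF3 and eIF5 prepare for scanning. The cap-binding protein eIF4E, the scaffold eIF4G and the helicase eIF4A, together called eIF4F, bring the messenger RNA to that subunit. Once the start codon is found, eEF1A delivers each aminoacyl-tRNA and eEF2 moves the ribosome along by a codon. Supply of eIF4E is held back by the 4E-binding proteins, and supply of active eIF2 depends on its exchange factor eIF2B, which is why both steps are common control points in cancer cells.

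Several of these genes are known for messages that begin with a C followed by an unbroken run of pyrimidines, the 5′ terminal oligopyrimidine tract, which ties their translation to nutrient signalling through mTORC1. RefSeq promoter windows (GRCh38.p14) were matched by symbol for 50 of the 63 genes. A C with at least 4 pyrimidines after it stood exactly at an annotated start in 12 of their 66 windows (18.2%) and in 4.07% of all 35116 windows, read on the gene's own strand. The 6 sequences here were chosen for that start and show its form, with runs of 6 to 16 bases, in 2 genes that rose (the first 2) and 4 that fell. Each runs from 30 bases before the start to 20 bases from it, and the capitals mark the pyrimidine run.
EEF1A1, chr6:73521013-73521062, minus strand: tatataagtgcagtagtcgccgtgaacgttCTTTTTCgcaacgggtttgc
EIF4A2, chr3:186783547-186783596, plus strand: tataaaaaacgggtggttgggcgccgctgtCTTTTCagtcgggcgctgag
EEF1B2, chr2:206159865-206159914, plus strand: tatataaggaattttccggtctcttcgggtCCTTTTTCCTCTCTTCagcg
EEF2, chr19:3985444-3985493, minus strand: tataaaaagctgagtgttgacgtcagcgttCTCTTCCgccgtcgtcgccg
EIF2A, chr3:150546757-150546806, plus strand: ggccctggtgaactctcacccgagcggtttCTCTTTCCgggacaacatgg
EIF3D, chr22:36529147-36529196, minus strand: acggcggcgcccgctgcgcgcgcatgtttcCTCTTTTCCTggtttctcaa

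The silenced gene was checked first. WDR5 stood at 16.5, 15.2 and 16.1 RPKM (reads scaled to gene-model length and to library size, computed here from the counts) in the shLuc libraries and at 7.34, 7.65 and 6.52 RPKM in the shWDR5 libraries. The groups did not overlap, and the log2 fold change was -1.15 (SE 0.074, edgeR quasi-likelihood test, Benjamini-Hochberg adjusted p = 8.67e-07), a 2.22-fold lower level. The labelled cell type was checked against fixed markers. All 8 markers on the basal epithelial list, among them the general epithelial genes EPCAM and CDH1, were above 1 RPKM, led by KRT17 at a mean of 1998 RPKM. Of 7 luminal markers 4 were above 1 RPKM, led by KRT8 at 905 and KRT18 at 856 RPKM, with GATA3 at 10.04 and FOXA1 at 7.47 RPKM, while the hormone receptor gene ESR1 averaged 0.510 RPKM. Above 1 RPKM were 1 of 6 fibroblast markers (COL1A1, 3.18 RPKM), 1 of 4 endothelial markers (PECAM1, 1.18 RPKM) and 1 of 5 leukocyte markers (CD68, 6.18 RPKM), and LUM of the fibroblast and CD3E of the leukocyte list were at 0 in every library. The summed markers of the basal epithelial list were higher after silencing, at 2272, 2192 and 2132 RPKM in shLuc against 4103, 3590 and 3831 RPKM in shWDR5. The test called higher levels of KRT5, KRT14, KRT17 and KRT6A with TP63 and CDH3, whereas EPCAM and CDH1 fell. Whether this marker shift had a part in the translation factor values was not tested, and fewer cells of a kind cannot be told apart from less RNA per cell in such bulk samples.

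The replicate 1 libraries stood apart from the others in both groups. Over all genes, the chi-square per gene against the other 2 replicates was 16.8 and 15.1 for shLuc replicate 1, and 7.59 between the other two. For shWDR5 replicate 1 it was 14.2 and 18.2, against 7.11. Among the translation factor genes, replicate 1 was the lowest of its group in both groups for 17 of the 53 genes tested and the highest in both for 21. EIF1AX, the eIF1A gene on the X chromosome, was one of the former, with 25.4 RPKM in shLuc replicate 1 beside 38.3 and 34.5 RPKM, and 22.5 RPKM in shWDR5 replicate 1 beside 30.7 and 35.1 RPKM. The counts of changed genes are therefore also given without these libraries.

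Silencing of WDR5 moved many of the translation factor genes by small amounts in both directions. Of the 53 that passed the filter on low counts, 14 rose and 17 fell at an adjusted p under 0.05, so 31 (58.5%) were called. Across all 16117 genes tested the share called was 56.5%, with 26.6% higher and 29.9% lower, against 26.4% and 32.1% of the translation factors, so their shares lay near those of all genes in this fit. When libraries were scaled by their totals alone the split was 9 higher (17%, beside 23% of all genes) and 24 lower (45.3%, beside 34.1%), further from those of all genes. With replicate number as a block in the fit it was 17 higher (32.1%, beside 30.4%) and 23 lower (43.4%, beside 34.2%), the lower share again further off. With no low-count filter it was 13 higher and 20 lower of 59 tested (22% and 33.9%, beside 20% and 22.8% of 21785 genes). Without both replicate 1 libraries it was 16 higher and 17 lower of 54 tested (29.6% and 31.5%, beside 26.8% and 29% of 16072 genes). Without shLuc replicate 2 it was 9 higher and 13 lower of 54 (16.7% and 24.1%, beside 23.2% and 26.9% of 16380 genes). The groups did not overlap for 33 of the 53 genes (62.3%), the same share as over all genes (62.3%). Of these, 15 were higher (28.3%, beside 29.9% of all genes) and 18 lower (34%, beside 32.4%). The groups did not overlap for 30 of the 31 called, EIF4E being the exception. The shifts were modest. The median absolute log2 fold change was 0.20, beside 0.31 over all genes, and the median signed change was -0.06 beside -0.01. Rises ranged from 0.16 to 0.39 and falls from -0.66 to -0.14 on the log2 scale, and only 8 called genes moved by at least 0.3.

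At the size the study used for its gene lists (absolute log2 fold change of at least 0.6, RPKM above 0.5), 18.4% of all genes were called, with 7.9% higher and 10.5% lower. Here 3 genes (5.66%) fell by that size and none rose. EIF2A, EEF1G and EIF4EBP1 were the 3, and no translation factor rose by that size at an unadjusted p under 0.05 in edgeR or DESeq2 with all 6 libraries and the low-count filter. Among genes of at least 10 RPKM the shares were 14.4% of 5784 genes and 3 of 44 factors. EEF1G and EIF4EBP1 lay just past 0.6 in size and only EIF2A remained under DESeq2 size factors, the DESeq2 test, a stricter count filter, without shLuc replicate 1 or without both replicate 1 libraries. EIF2B3, at -0.57, lay just short of that size and passed it with library totals only (-0.62, when 4 genes were past it) and without shLuc replicate 2 (-0.63, when EIF4EBP1 was at -0.57 and the 3 genes were EIF2A, EEF1G and EIF2B3).

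**Figure D1:**
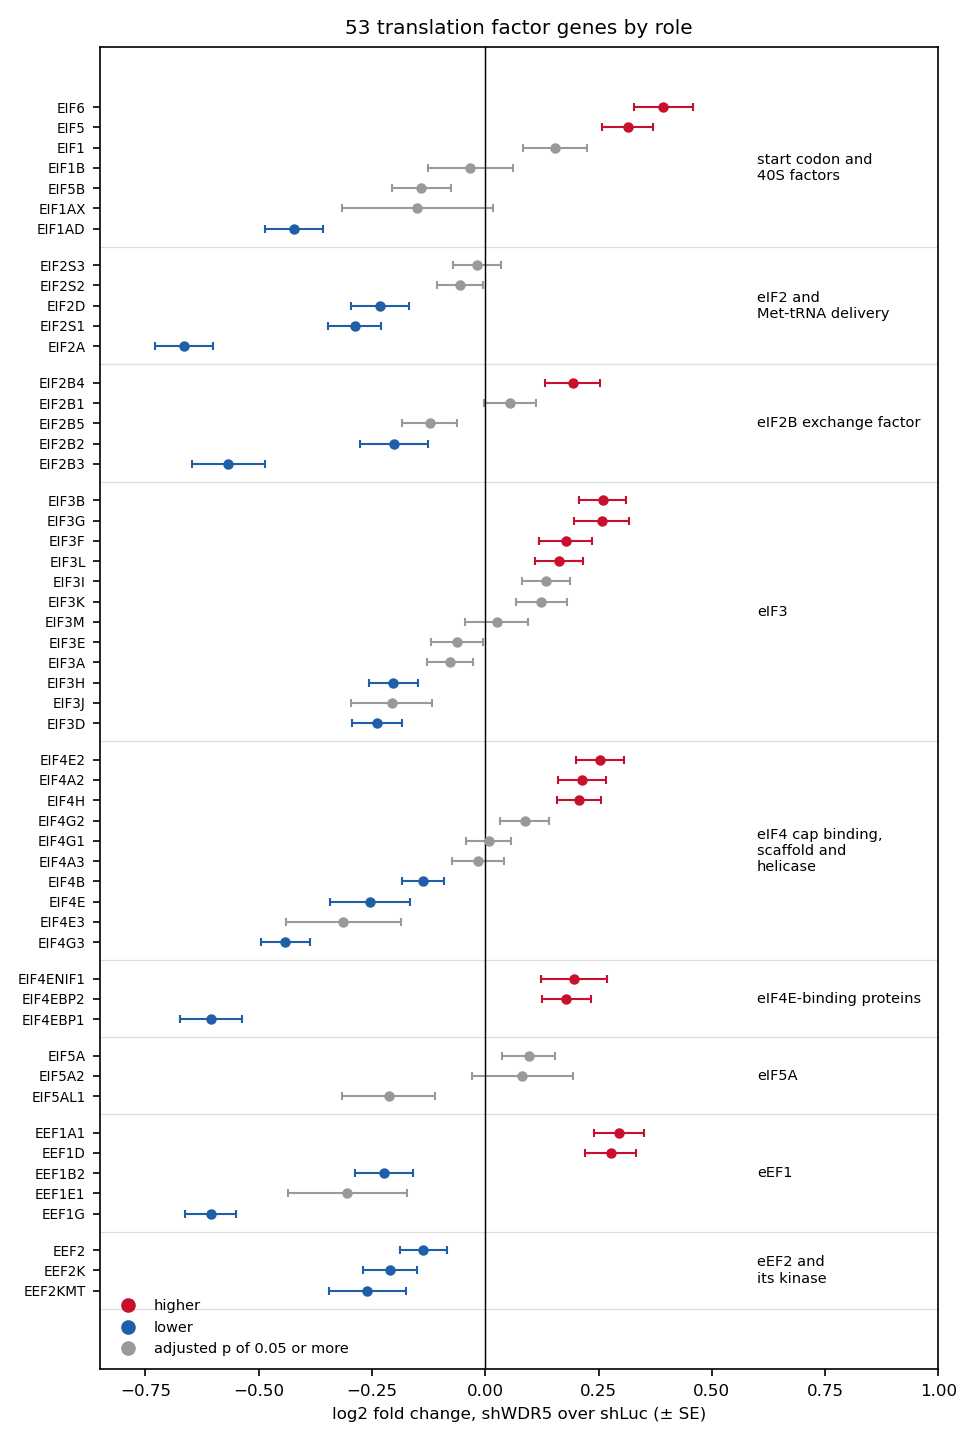
Log2 fold change (shWDR5 over shLuc, x axis) with its SE for the 53 translation factor genes tested, grouped by role, with red for higher, blue for lower and grey for an adjusted p of 0.05 or more. Changes in both directions stand within most groups, the eIF2, eIF5A and eEF2 groups hold no higher gene, and EIF2A (-0.66) and EIF6 (0.39) mark the extremes.

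EIF2A encodes a monomeric protein, distinct from the eIF2 trimer, that can bring initiator tRNA to the ribosome at some non-AUG and unusual starts. It fell the furthest of the 53 in the fit of all 6 libraries. Without shLuc replicate 3 EIF4EBP1 (-0.673) fell further than EIF2A (-0.636). Without shWDR5 replicate 1 both EEF1G (-0.637) and EIF4EBP1 (-0.626) lay past EIF2A (-0.623). EIF2A (hg19 chr3:150264574-150303803, plus strand) stood at 45.4, 49.4 and 50.4 RPKM in shLuc and at 28.7, 32.1 and 30.7 RPKM in shWDR5. Every silenced library lay below every control, and the level was 1.59-fold lower (log2 fold change -0.66, SE 0.063, adjusted p = 1.08e-05). EIF2D, another non-canonical tRNA-delivering factor, fell by 0.23 on the log2 scale (adjusted p = 0.00941). Of the eIF2 trimer, the gene of 1 subunit was called. EIF2S1 encodes the alpha subunit whose phosphorylation by stress kinases shuts down initiation, and stood at 43.2, 44.96 and 47.3 RPKM in shLuc and 35.1, 38.3 and 37.5 RPKM in shWDR5, again without overlap (log2 fold change -0.29, SE 0.058, adjusted p = 0.00164). The beta and gamma subunit genes EIF2S2 (log2 fold change -0.06) and EIF2S3 (-0.02) overlapped between the groups and did not pass the test. In all, 3 of the 5 tested genes of this group fell and none rose, beside 29.9% lower and 26.6% higher over all genes, a count too small to set the group apart.

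The exchange factor eIF2B, which reloads eIF2 with GTP, has 5 subunits, and its genes did not move together. EIF2B3 encodes the gamma subunit, part of the catalytic arm of the complex. EIF2B3 stood at 12.7, 10.7 and 11.5 RPKM in shLuc and at 8.13, 8.14 and 7.36 RPKM in shWDR5. All 3 silenced libraries lay below the controls (log2 fold change -0.57, SE 0.081, adjusted p = 1.82e-04). EIF2B4, a regulatory subunit gene, rose by 0.19 (adjusted p = 0.0187). EIF2B2, another regulatory subunit, fell by 0.20 on the log2 scale (adjusted p = 0.0406). Both calls were fragile. That of EIF2B4 was lost with library totals only (0.14), without shLuc replicate 2 (0.16) or 3 (0.18) or shWDR5 replicate 1 (0.16). That of EIF2B2 was lost with DESeq2 size factors, in the DESeq2 test and with at least 10 counts in every sample (each -0.19), without both replicate 1 libraries (-0.13), and without shLuc replicate 1 (-0.11) or 3 (-0.22) or shWDR5 replicate 2 (-0.21) or 3 (-0.18). EIF2B5, the catalytic subunit gene, did not pass the test although its groups did not overlap, at 27.2 to 30.1 RPKM against 30.3 to 32.8 RPKM in the controls (log2 fold change -0.12, adjusted p = 0.109). EIF2B5 was called lower with library totals only (-0.18) and with a replicate block (-0.12). EIF2B1 had a log2 fold change of 0.05 (adjusted p = 0.448).

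A group of 7 tested genes held the scanning, start codon and subunit-joining factors together with EIF6 and the eIF1A-like EIF1AD, and 2 rose and 1 fell. The shares over all genes were 26.6% higher and 29.9% lower, and 7 genes are too few to set the group apart. Of the scanning and start codon factors themselves, EIF5 alone was called. EIF6, which keeps the large subunit from joining until it is released, had the largest rise of all 53 genes. EIF6 (hg19 chr20:33866709-33872619, minus strand) stood at 89.2, 80.5 and 81.2 RPKM in shLuc and at 117, 110.0 and 103 RPKM in shWDR5. The lowest silenced library exceeded the highest control, a 1.31-fold higher level (log2 fold change 0.39, SE 0.065, adjusted p = 4.92e-04). EIF5, the GTPase-activating protein that triggers GTP hydrolysis by eIF2 at the start codon, stood at 34.6, 35.0 and 38.1 RPKM in shLuc and 44.3, 43.6 and 46.0 RPKM in shWDR5 (log2 fold change 0.31, SE 0.056, adjusted p = 7.42e-04). The gene that fell was EIF1AD, which encodes a protein with an eIF1A-like domain. Its controls were tight, at 10.2, 10.4 and 10.4 RPKM, and its silenced libraries lay at 7.93, 7.89 and 7.22 RPKM (log2 fold change -0.42, SE 0.064, adjusted p = 2.75e-04). EIF1, EIF1B, EIF1AX and EIF5B, which encode core scanning and subunit-joining factors, did not pass the test, with log2 fold changes of 0.15, -0.03, -0.15 and -0.14. EIF1 was called higher without shLuc replicate 1 (0.22), shWDR5 replicate 3 (0.20) or both replicate 1 libraries (0.19), and with a replicate block (0.15). EIF1AX was called lower with a replicate block (-0.15), and EIF5B with that block and with library totals only.

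**Figure D2:**
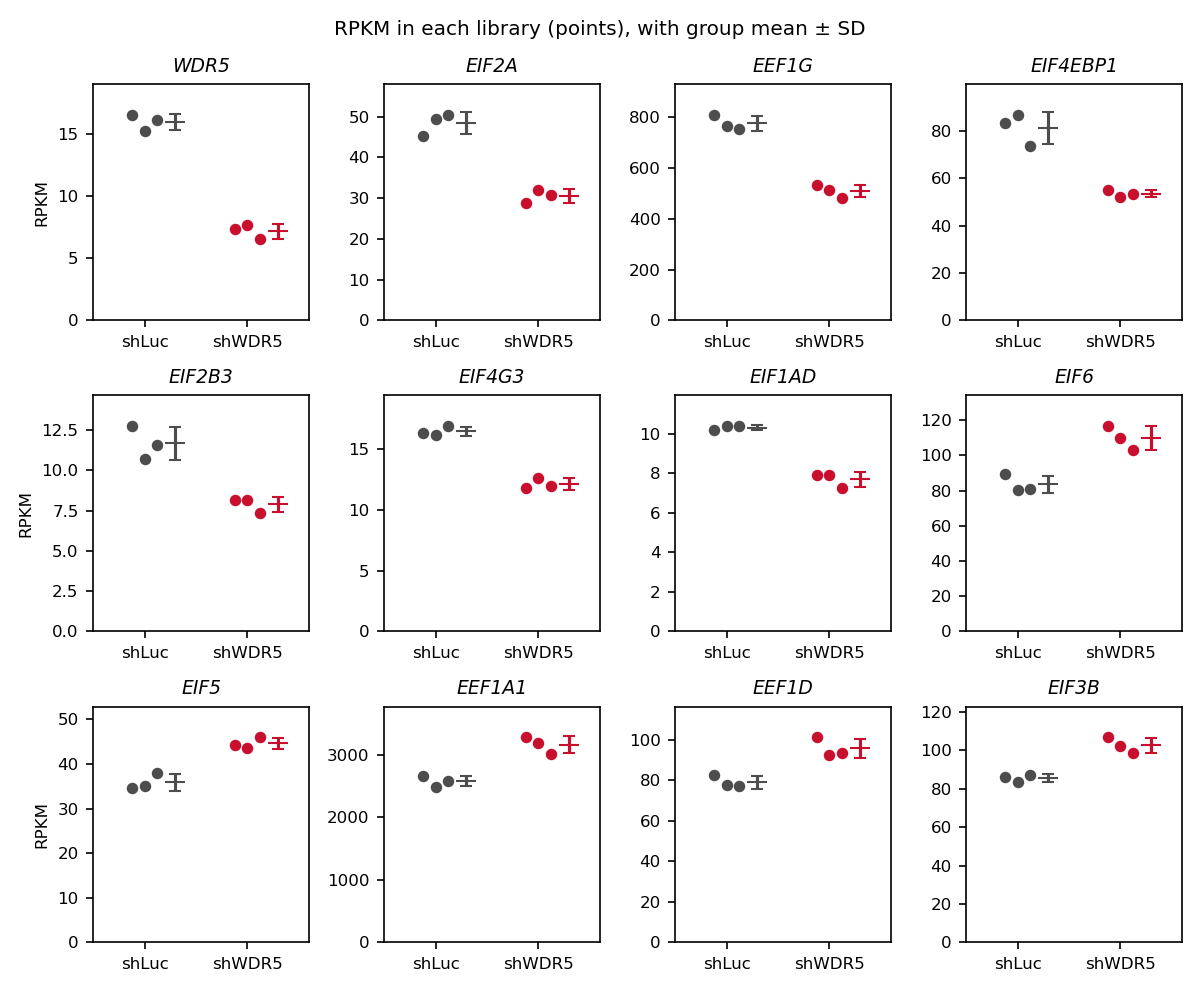
RPKM in each library (points) with the group mean ± SD for WDR5 and 11 translation factor genes, shLuc in grey and shWDR5 in red, each y axis starting at 0. The groups do not overlap in any of the 12 panels, and the fall of WDR5 (2.22-fold) exceeds those of EIF2A, EEF1G and EIF4EBP1.

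The eIF3 complex, the largest initiation factor, holds the small subunit open for the messenger RNA. Of its 12 tested genes 4 rose, 2 fell and 6 did not pass the test, with log2 fold changes from -0.24 to 0.26 and a median of 0.07. Over all genes 26.6% were higher and 29.9% lower, and counts among 12 genes are too small to set eIF3 apart. Its summed level, without the EIF3C genes, was 1518, 1469 and 1507 RPKM in shLuc and 1559, 1559 and 1506 RPKM in shWDR5, so the groups overlapped. The largest rise was in EIF3B, the core subunit that scaffolds the complex, at 86.2, 83.5 and 87.3 RPKM against 107, 102 and 98.7 RPKM (log2 fold change 0.26, SE 0.052, adjusted p = 0.00160). EIF3G, which binds EIF3B in the same module, rose by 0.26 as well (adjusted p = 0.00437), although 10.3% of its gene model is shared with P2RY11. EIF3F rose by 0.18 (adjusted p = 0.0246) and EIF3L by 0.16 (adjusted p = 0.0225). Those calls were lost with library totals only (0.12 for EIF3F and 0.11 for EIF3L), without shLuc replicate 2 (0.15 for both genes) or 3 (0.15 for EIF3F and 0.14 for EIF3L), and without shWDR5 replicate 1 (0.15 and 0.14), and that of EIF3L also without shWDR5 replicate 2 (0.16). The largest fall was in EIF3D, the subunit that can itself bind the cap of some messages, at 127, 117 and 118 RPKM against 105, 103 and 98.4 RPKM (log2 fold change -0.24, SE 0.055, adjusted p = 0.00379). EIF3H fell by 0.20 on the log2 scale (adjusted p = 0.00835). EIF3I, at 0.13, did not pass the test (adjusted p = 0.0527) although its groups did not overlap. EIF3I was called higher under 6 of the 14 alternatives, among them DESeq2 size factors (0.15) and leaving out shLuc replicate 1 (0.17), shWDR5 replicate 3 (0.16) or both replicate 1 libraries (0.16). EIF3J (-0.21), EIF3K (0.12), EIF3M (0.02), EIF3E (-0.06) and EIF3A (-0.08) did not pass it and overlapped between the groups. Of the EIF3M gene model 34.6% is shared with CCDC73, so its level and its part in the eIF3 sum are less certain. EIF3J was called lower under 5 of the 14 alternatives and EIF3K higher under 3. Among them were a replicate block (-0.21 and 0.13) and leaving out shLuc replicate 1 (-0.27 and 0.18) or both replicate 1 libraries (-0.19 and 0.17).

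Of the 10 tested genes for cap binding, scaffold and helicase, 3 rose and 3 fell, beside 26.6% higher and 29.9% lower over all genes. EIF4E encodes the cap-binding protein itself, often limiting for eIF4F. EIF4E stood at 18.5, 21.5 and 22.0 RPKM in shLuc and at 15.4, 17.5 and 19.0 RPKM in shWDR5. The highest silenced library exceeded the lowest control, and the fall of EIF4E (log2 fold change -0.26, SE 0.088, adjusted p = 0.0300) was lost without shLuc replicate 2 (-0.23) or 3 (-0.21) or shWDR5 replicate 1 (-0.18) or 2 (-0.26). EIF4E2, a cap-binding homologue that works in repression of specific messages, went the other way, at 17.5, 16.6 and 17.0 RPKM against 20.8, 19.96 and 20.2 RPKM without overlap (log2 fold change 0.25, SE 0.053, adjusted p = 0.00217). EIF4E3, the third homologue, was low, with 1.56 to 2.11 RPKM in shLuc and 1.32 to 1.69 RPKM in shWDR5, and did not pass the test (log2 fold change -0.31, adjusted p = 0.0565). EIF4E3 was called lower under 8 of the 14 alternatives, among them the DESeq2 test (-0.30), library totals only (-0.37) and leaving out shLuc replicate 1 (-0.43), shWDR5 replicate 3 (-0.39) or both replicate 1 libraries (-0.33).

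The scaffolds differed as well. EIF4G3, the less abundant of the eIF4E-binding scaffolds, stood at 16.3, 16.2 and 16.9 RPKM in shLuc and at 11.8, 12.6 and 11.96 RPKM in shWDR5, so that every silenced library was lower (log2 fold change -0.44, SE 0.054, adjusted p = 6.17e-05). EIF4G1, the main scaffold, stood at 162, 160 and 158 RPKM against 168, 156 and 158 RPKM (log2 fold change 0.01, SE 0.050, adjusted p = 0.911). EIF4G2, which lacks the eIF4E-binding site and serves cap-independent initiation, had a log2 fold change of 0.09 (adjusted p = 0.198). EIF4A2, a helicase gene, rose from 148, 158 and 153 RPKM to 172, 176 and 184 RPKM (log2 fold change 0.21, SE 0.052, adjusted p = 0.00535). EIF4H, a cofactor that raises helicase activity, rose by 0.21 (adjusted p = 0.00397), whereas EIF4B, the other cofactor, fell by 0.14 on the log2 scale (adjusted p = 0.0281). The call of EIF4B was lost with DESeq2 size factors and in the DESeq2 test (both -0.12), without shLuc replicate 2 (-0.14) or 3 (-0.13) and without shWDR5 replicate 2 (-0.13) or 3 (-0.14). EIF4A3, the helicase of the exon junction complex, had one of -0.02 (adjusted p = 0.829).

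The main helicase gene, EIF4A1, was listed at 0 in all 6 libraries. Its gene model (hg19 chr17:7476024-7482324) lies to 100% within that of the read-through gene SENP3-EIF4A1, which held 39, 36 and 35 counts in shLuc and 62, 69 and 67 counts in shWDR5. EIF3C and EIF3CL, near-identical copies, were listed at 0 too, with 87.1% and 99.9% of their models shared with each other, as was EEF1E1-BLOC1S5 (100% shared). How reads in shared models were assigned is not given in the sources used here, so these zeros give no level. The other 6 untested genes, EEF1A2, EIF1AY, EIF4E1B, EIF3IP1, EEF1DP3 and EIF4EBP3, had counts below the filter. EIF4EBP3 shares 74.7% of its model with ANKHD1-EIF4EBP3 and held 6, 4 and 7 counts in shLuc and 9, 14 and 19 in shWDR5. EIF5AL1 is a near-identical copy of EIF5A, so its reads are uncertain.

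The 4E-binding proteins hold eIF4E away from eIF4G until mTORC1 phosphorylates them. Of the 3 tested genes for eIF4E-binding proteins, 1 fell and 2 rose, beside 29.9% lower and 26.6% higher over all genes. So few genes do not set the group apart. EIF4EBP1 stood at 83.3, 86.6 and 73.6 RPKM in shLuc and at 54.9, 51.9 and 53.3 RPKM in shWDR5, well apart, and was 1.52-fold lower (log2 fold change -0.61, SE 0.069, adjusted p = 3.96e-05). EIF4EBP2 stood at 12.04, 12.2 and 12.7 RPKM against 13.6, 13.7 and 14.4 RPKM, also apart but in the opposite direction (log2 fold change 0.18, SE 0.053, adjusted p = 0.0152). EIF4ENIF1, the transporter of eIF4E into the nucleus, rose by 0.20 (adjusted p = 0.0402). The call of EIF4EBP2 was lost with library totals only (0.12) and without shLuc replicate 2 (0.16) or shWDR5 replicate 3 (0.15). That of EIF4ENIF1 was lost with library totals only (0.14), with no low-count filter (0.19), without both replicate 1 libraries (0.12), and without shLuc replicate 1 (0.17) or 2 (0.20) or shWDR5 replicate 1 (0.14) or 2 (0.22).

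**Figure D3:**
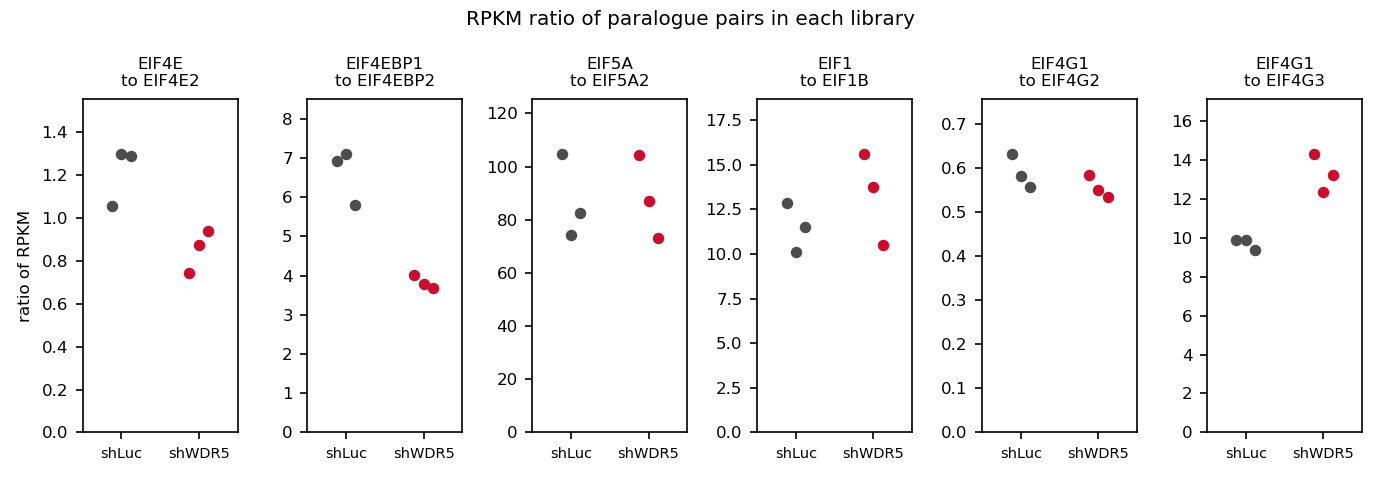
Ratio of RPKM within 6 pairs of related genes in each library (points; y axis a linear ratio starting at 0), shLuc in grey and shWDR5 in red. The EIF4EBP1 to EIF4EBP2 ratio falls from 5.81 or more to 4.02 or less, the EIF4E to EIF4E2 ratio from 1.05 or more to 0.940 or less, and the EIF4G1 to EIF4G3 ratio rises from at most 9.91 to at least 12.3.

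The division of messages between related genes was compared as the RPKM ratio of 6 pairs in each library. EIF4EBP1 exceeded EIF4EBP2 by 6.92, 7.09 and 5.81 times in shLuc and by 4.02, 3.79 and 3.69 times in shWDR5. EIF4E stood at 1.05, 1.30 and 1.29 times EIF4E2 in shLuc and at 0.743, 0.876 and 0.940 times in shWDR5. Which of the 2 genes stands higher depends on the gene-model lengths used for RPKM (5040 bases for EIF4E, 3891 for EIF4E2). In unscaled counts EIF4E still exceeded EIF4E2 in shWDR5 replicates 2 (5006 against 4413) and 3 (4342 against 3568), but not in replicate 1 (3602 against 3745). Only the shift in the ratio is therefore read here. EIF4G1 exceeded EIF4G3 by 9.91, 9.88 and 9.36 times in shLuc and by 14.3, 12.3 and 13.2 times in shWDR5. In each of these 3 pairs the groups did not overlap, and the exact two-sided permutation p was 0.1, the smallest that 3 against 3 samples allow (adjusted p = 0.2 over the 6 pairs), so this permutation test cannot pass 0.05 with these sample numbers. The differences in mean log2 ratio were -0.78, -0.51 and 0.45. For EIF5A to EIF5A2, EIF1 to EIF1B and EIF4G1 to EIF4G2 the groups overlapped, with differences of 0.02, 0.20 and -0.08 (exact permutation p of 1, 0.4 and 0.3). Ratios with EIF4A1 or EEF1A2 were not formed, since EIF4A1 is listed at 0 and EEF1A2, the muscle and neuron form, had at most 1 count per library.

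Apart from EIF4A1, EIF3C and EIF3CL, whose zeros give no level, the 3 most abundant messages among the translation factors were of elongation factor genes. EEF1A1 averaged 2870 RPKM over the 6 libraries, above every other in each library. EEF2 at 752 and EEF1G at 641 RPKM came next and overlapped among the shLuc libraries, where EEF1G reached 806 RPKM, but not among the shWDR5 libraries. By the mean over the 6 libraries EIF5A, EIF1 and EEF1B2 followed, at 296 to 343, 270 to 345 and 272 to 350.3 RPKM, and their ranges overlapped. Among these, EEF1B2 was the highest in every shLuc library and the lowest in every shWDR5 library. EIF4G2, next by mean at 256 to 296 RPKM, overlapped with EIF1 and EEF1B2. EEF1A1 (hg19 chr6:74225473-74230755, minus strand) delivers aminoacyl-tRNA to the ribosome. EEF1A1 stood at 2656, 2490 and 2586 RPKM in shLuc and at 3279, 3188 and 3020 RPKM in shWDR5. The 3 silenced libraries were all higher (log2 fold change 0.30, SE 0.055, adjusted p = 0.00102, 1.23-fold). Its share of all gene counts was 0.950%, 0.887% and 0.932% in shLuc and 1.12%, 1.10% and 1.04% in shWDR5.

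**Figure D4:**
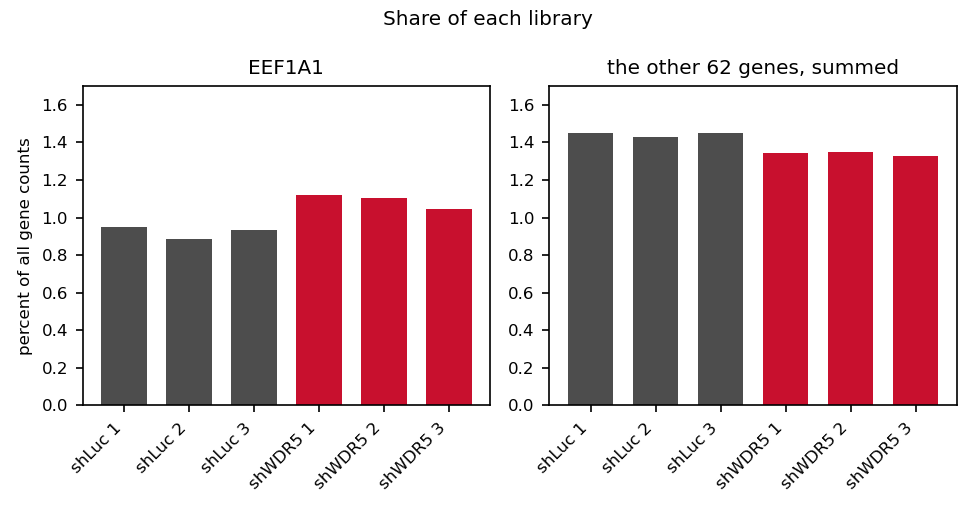
Percent of all gene counts in each library taken by EEF1A1 (left) and by the other 62 translation factor genes summed (right), with bars starting at 0, shLuc in grey and shWDR5 in red. The 62 include 4 genes listed at 0 in every library, EIF4A1 among them. EEF1A1 is higher in every shWDR5 library (1.04% to 1.12% against 0.887% to 0.950%) and the remaining genes are lower in every one (1.33% to 1.35% against 1.43% to 1.45%).

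The other 62 genes together took 1.45%, 1.43% and 1.45% of counts in shLuc and 1.34%, 1.35% and 1.33% in shWDR5. Together with EEF1A1 the shares overlapped, at 2.31% to 2.40% against 2.37% to 2.46%. EEF1A1 made up 30.1% to 30.8% of the summed RPKM of the translation factors in shLuc and 35.6% to 36.5% in shWDR5. The 4 genes listed at 0 in every library, EIF4A1 among them, add nothing to these sums and shares. These shares move with what else fills a library, and the 10 most abundant genes took 5.74% to 6.09% of counts in shLuc and 7.67% to 8.16% in shWDR5.

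The subunits that reload eEF1A with GTP split. EEF1G (hg19 chr11:62327073-62341460, minus strand), the gamma subunit that anchors the exchange complex, stood at 806, 764 and 752 RPKM in shLuc and at 530.4, 514 and 481 RPKM in shWDR5. EEF1G was 1.52-fold lower, with the groups far apart (log2 fold change -0.61, SE 0.056, adjusted p = 8.83e-06). EEF1B2, an exchange subunit, fell from 350.3, 303 and 343 RPKM to 293, 288 and 272 RPKM (log2 fold change -0.22, SE 0.064, adjusted p = 0.0129). The call of EEF1B2 was lost without shLuc replicate 1 (-0.17) or 3 (-0.20) or shWDR5 replicate 3 (-0.19). EEF1D, the other exchange subunit, rose instead, from 82.5, 77.4 and 76.9 RPKM to 101, 92.3 and 93.6 RPKM (log2 fold change 0.28, SE 0.057, adjusted p = 0.00185). EEF1E1, a scaffold of the tRNA synthetase complex, had a log2 fold change of -0.30 and did not pass the test (adjusted p = 0.0700), with 36.8% of its model shared with EEF1E1-BLOC1S5. EEF1E1 was called lower under 7 of the 14 alternatives, among them library totals only (-0.36) and leaving out shLuc replicate 1 (-0.40), shWDR5 replicate 3 (-0.38) or both replicate 1 libraries (-0.28).

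The 3 genes of the translocation step were each called lower, beside 29.9% of all genes, and by little, but only the call of EEF2K was kept under all 14 alternatives. EEF2, which moves the ribosome along the message, stood at 815, 793 and 756 RPKM in shLuc and at 737, 714 and 699 RPKM in shWDR5 (log2 fold change -0.14, SE 0.052, adjusted p = 0.0436). The call of EEF2 was kept under 5 of the 14. It was lost with DESeq2 size factors and in the DESeq2 test (both -0.12), with at least 10 counts in every sample (-0.13), in the likelihood ratio test (-0.14), without both replicate 1 libraries (-0.11), and without shLuc replicate 1 (-0.10) or 2 (-0.14) or shWDR5 replicate 2 (-0.13) or 3 (-0.12). EEF2K, the kinase that switches eEF2 off, stood at 5.90, 6.14 and 6.44 RPKM against 5.19, 5.31 and 5.47 RPKM, with no overlap (log2 fold change -0.21, SE 0.060, adjusted p = 0.0123). EEF2KMT, the methyltransferase of eEF2, fell by 0.26 on the log2 scale (adjusted p = 0.0224). Its model shares 40.9% with ALG1, and its call was lost in the DESeq2 test (-0.24), without both replicate 1 libraries (-0.20), and without shLuc replicate 1 (-0.24) or 2 (-0.24) or shWDR5 replicate 1 (-0.22) or 3 (-0.26). EIF5A, which carries the hypusine residue and eases the ribosome through proline stretches, did not pass the test. EIF5A stood at 326, 296 and 303 RPKM against 343, 333 and 312 RPKM (log2 fold change 0.10, adjusted p = 0.187), and the log2 fold change was 0.08 for EIF5A2 and -0.21 for EIF5AL1 (adjusted p of 0.561 and 0.104).

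**Figure D5:**
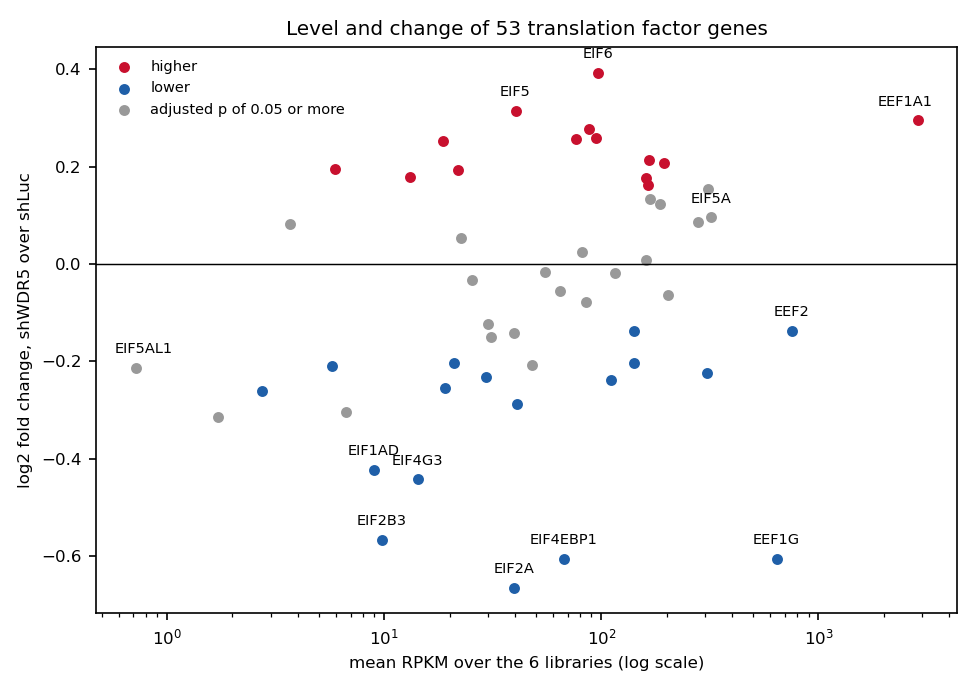
Mean RPKM over the 6 libraries (x axis, log scale) against log2 fold change (shWDR5 over shLuc, y axis) for the 53 tested translation factor genes, with the colours of higher (red), lower (blue) and an adjusted p of 0.05 or more (grey). The most abundant gene, EEF1A1, is higher (0.30) and the next ones, EEF2 (-0.14) and EEF1G (-0.61), are lower, and EIF2A, EEF1G, EIF4EBP1 and EIF2B3 lie lowest.

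Genes with the pyrimidine start printed at the outset did not share a direction. Of the 12 such factors 3 rose (EEF1A1, EIF3F and EIF4A2), 6 fell (EEF1B2, EEF2, EIF2A, EIF2D, EIF3D and EIF4B) and 3 did not pass the test (EIF2S3, EIF3K and EIF3M). Over all 785 tested genes with such a start 217 rose and 262 fell, with a median log2 fold change of 0.01 beside -0.08 for the 12. The palindrome CACGTG, the E-box bound by MYC and related factors, reads the same on both strands and was searched in the whole promoter windows, which end shortly after the start. It was present in 12 of the 66 windows (18.2%) and in 7.26% of all windows. Over tested genes with a window it was present for 11 of 44 factors (25%) and for 11.9% of all 11381 genes. The pyrimidine start was present for 12 of those 44 factors (27.3%) and for 6.90% of the 11381 genes. CACGTG was held by EIF2B3, EIF4E, EIF4B and EEF2K, which fell, by EIF4H and EIF3F, which rose, by EIF1B, EIF5A2, EIF4G1, EIF4A3 and EIF3K, which did not pass the test, and by EIF4EBP3, which was not tested. A match describes the letters of a window and not a bound site.

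Other genes that act on these factors were followed in 6 lists, chosen with earlier results of these data known. Of 66 tested genes 15 rose (22.7%) and 23 fell (34.8%), so 57.6% were called, beside 56.5% of all genes. Of the called genes 7 changed by at least 0.6 on the log2 scale, 10.6% of those tested, beside 18.4% of all genes at the study's thresholds. With so few genes in each list the counts that follow are descriptions, beside 26.6% higher and 29.9% lower over all genes. Among 9 genes of eIF2 phosphorylation 3 rose and 3 fell, with a median of 0.10. EIF2AK4, the GCN2 kinase that senses uncharged tRNA, stood at 34.1, 34.6 and 34.1 RPKM in shLuc and at 53.6, 54.3 and 52.8 RPKM in shWDR5 (log2 fold change 0.64, SE 0.047, adjusted p = 2.06e-06). PPP1R15B, the constitutive targeting subunit of the eIF2 phosphatase, stood at 29.5, 34.7 and 33.0 RPKM against 17.8, 19.7 and 20.8 RPKM (log2 fold change -0.74, SE 0.077, adjusted p = 2.05e-05). IMPACT, an inhibitor of GCN2, fell by 0.71 on the log2 scale (adjusted p = 1.70e-04), a gene picked after its value was seen. The other called genes of the list went both ways. PPP1R15A, the stress-induced phosphatase subunit, rose by 0.27 (adjusted p = 0.00634) and NCK1, an adaptor, by 0.29 (adjusted p = 0.00632), and EIF2AK2, the kinase PKR that senses double-stranded RNA, fell by 0.50 on the log2 scale (adjusted p = 3.15e-04).

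In the list of mTORC1 and of the MNK kinases that phosphorylate eIF4E, 4 of 14 genes rose and 4 fell, with a median of -0.05. MKNK1, the gene of MNK1, stood at 5.91, 5.52 and 6.58 RPKM in shLuc and at 11.1, 10.7 and 10.3 RPKM in shWDR5, the largest rise among the listed genes that were called (log2 fold change 0.83, SE 0.077, adjusted p = 9.03e-06). MKNK2, its paralogue, also picked after its value was seen, rose by 0.58 (adjusted p = 5.76e-06). RPS6KA1, the RSK1 kinase, fell from 45.1, 43.1 and 39.8 RPKM to 25.5, 24.7 and 24.2 RPKM (log2 fold change -0.78, SE 0.061, adjusted p = 2.90e-06). MTOR itself did not pass the test (log2 fold change -0.04, adjusted p = 0.521).

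Of 10 poly(A)-binding proteins and their partners 2 rose and 3 fell (median 0.02). PAIP1, which bridges poly(A)-binding protein and eIF4A, rose by 0.32 (adjusted p = 0.00154), while PAIP2B, an inhibitor of poly(A)-binding protein present at only 1.34 to 1.55 RPKM in shLuc, fell by 0.92 on the log2 scale (adjusted p = 1.84e-05). Of 11 termination, recycling and rescue factors 2 rose and 4 fell (median -0.03), with GSPT2, a release factor eRF3 gene, higher by 0.35 (adjusted p = 0.00409) and HBS1L, which frees stalled ribosomes, lower (log2 fold change -0.52, adjusted p = 6.79e-05). Of 12 enzymes that modify eIF5A, eEF2 and eEF1A 3 rose and 4 fell (median -0.01). DPH3, needed for the diphthamide residue of eEF2, rose by 0.52 (adjusted p = 1.78e-04) and METTL10, a lysine methyltransferase of eEF1A, fell by 0.71 on the log2 scale (adjusted p = 6.92e-05). Of 10 mitochondrial translation factors 1 rose and 5 fell (median -0.16), the rise being in MTRF1L (0.22, adjusted p = 0.0113) and the largest fall in MTRF1 (-0.40, adjusted p = 0.00302), both of the release factor family.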

How the data were processed

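Poly-A RNA of 3 shLuc and 3 shWDR5 samples was sequenced on an Illumina HiSeq. The authors aligned reads with TopHat2 2.1.0 to hg19 (GRCh37) and deposited whole-number counts per gene from featureCounts, whose version, strand and multi-overlap settings are not given in the sources used here. Gene-model length came from the same table. A second file, of the authors' own edgeR 3.2.2 comparison (fold changes and p-values), was not used. Counts of all genes were fitted with edgeR 4.0.16 (R 4.3.3), with TMM scaling, filterByExpr and the quasi-likelihood test, and Benjamini-Hochberg adjustment over the 16117 genes tested. RPKM used gene-model length and TMM-scaled library sizes. Depth was 38218108 to 57640167 counts. Fits were tested on simulated counts.

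Genes were named if past 0.6 in size, at the extremes of their role or list, among the 5 most abundant or in a fixed list. The remaining members of each role are given with short values. Members and lists were chosen with earlier results of these data known. Alternatives were other scalings and filters, DESeq2 1.42.0, edgeR's likelihood ratio test, a replicate block and leaving out libraries. Promoter windows came from RefSeq (GRCh38.p14), so their coordinates differ from the hg19 ones of the gene models.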

Additional observations from a re-analysis of the deposited data

How the results depend on the processing

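Of the 31 called genes 20 kept their call and direction under all 14 alternatives, and none reversed. EEF2, EIF2B2, EIF4B, EIF4ENIF1, EEF2KMT, EIF3L, EIF2B4, EIF3F, EIF4E, EEF1B2 and EIF4EBP2 each lost it under some. Of the 22 not called, 11 were called under some alternative, namely EIF4E3 under 8, EEF1E1 under 7, EIF3I under 6, EIF3J under 5, EIF1 under 4, EIF3K under 3, EIF2B5 and EIF5B under 2, and EIF3A, EIF5AL1 and EIF1AX under 1. Leaving out 1 library gave 9 to 16 genes higher and 13 to 16 lower, with 9 higher without shLuc replicate 2, and 1 to 3 lower by 0.6, with 1 without shLuc replicate 1. Over all genes the ranges were 3803 to 4263 higher and 4271 to 4584 lower, and for WDR5 a log2 fold change of -1.20 to -1.09. With library totals only 9 rose and 24 fell, and 3705 and 5498 of all genes. The count lower by 0.6 was 1 with DESeq2 size factors, with at least 10 counts in every sample, with the DESeq2 Wald test and without both replicate 1 libraries, an alternative chosen after seeing the data. The count of rises of at least 0.6 at an unadjusted p under 0.05 was 2 with no low-count filter and 1 without shLuc replicate 3, without shWDR5 replicate 1 or without both replicate 1 libraries.

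With a replicate block 17 factors rose (32.1%) and 23 fell (43.4%), beside 4901 (30.4%) and 5511 (34.2%) of all genes. The deviations of same-numbered samples correlated at 0.37, 0.04 and 0.12. Here shLuc replicate 2 correlated best with shWDR5 replicate 3 (0.21). Deviations were centred within each group of 3, so a shared deviation of replicate 1 also ties replicates 2 and 3 across the groups. These correlations therefore cannot decide whether replicates 2 and 3 were paired, and the main fit used no block. The replicate 1 libraries did share a deviation, being lowest in both groups for 17 factors and highest in both for 21. Those counts were 3 and 3 for replicate 2 and 4 and 8 for replicate 3. Near-zero changes of genes that did not pass the test turned sign. With library totals only EIF2B1 was at -0.0030, EIF3M at -0.032 and EIF4G1 at -0.050. EIF4A3 was at 0.00077 with DESeq2 size factors and 0.00069 in the DESeq2 test, and EIF4G1 at -0.0023 with no low-count filter. Without both replicate 1 libraries EIF1B was at 0.034, EIF2S3 at 0.0064 and EIF4A3 at 0.00022. Leaving out 1 library gave ranges across 0 for EIF1AX (-0.296 to 0.0102), EIF1B (-0.146 to 0.0463), EIF2S3 (-0.0451 to 0.0150), EIF3M (-0.0199 to 0.0749), EIF4A3 (-0.0484 to 0.0285), EIF4G1 (-0.0249 to 0.0307), EIF5A2 (-0.0094 to 0.173) and the EIF5A to EIF5A2 ratio (-0.11 to 0.16).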
